A study of Homo sapiens with 12 samples.

Results

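The MuvB core genes LIN9, LIN37, LIN52, LIN54 and RBBP4, the DREAM partners RBL2, TFDP1 and TFDP2, and the activators MYBL2 and FOXM1 were chosen by their gene name in both deposited RNA-seq tables. All 10 were found, each with 1 identifier, among the 25914 genes that each table lists. The libraries came from the colon cancer cell line HCT116 and from RPE-1 hTERT, an immortalized line of the retinal pigment epithelium, both described as wild-type epithelial cells. Each line was treated for 24 h with 10 µM Nutlin-3a, which keeps MDM2 from binding p53, or with DMSO as solvent control. There were 3 libraries in each of the 4 groups and 12 in all, and nothing in the sources used here says whether the HCT116 replicates were separate cultures.

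Only 1 measurement per gene was used here, the base mean, which is a mean normalized read count. It is the authors' pooled value and carries no error and no number of replicates. Its values are identical in both tables (largest difference 0), so it is not the level of RPE-1 or of HCT116, and it does not separate Nutlin-3a from DMSO. Which libraries it averages is not stated, and the number of reads per library is unknown. No difference between treatments or cell lines is therefore given for any gene, and each comparison of levels below is a description with no test. The other measurements in the tables are the submitters' own comparisons of Nutlin-3a with DMSO and were not analysed here. For the same reason, the p53 targets MDM2 and CDKN1A could not be used to check the treatment labels.

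MuvB is a protein complex that changes partners during the cell cycle. In resting or arrested cells, it joins an RB-like protein, an E2F repressor and a DP protein to form DREAM, which represses cell cycle genes. In proliferating cells, MuvB binds B-MYB, encoded by MYBL2, and then FOXM1, and some of the same promoters are activated. Through LIN54, the complex recognizes the cell cycle genes homology region (CHR), whereas E2F and DP proteins recognize E2F sites. Activation of p53 is known to shift the balance toward DREAM.

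Promoter sequences were searched for the letters of both kinds of site. The windows are those of RefSeq on GRCh38.p14 and run from 250 bases before to 50 bases after an annotated start. They were found for 9 of the 10 genes, in 17 windows, because several genes have more than 1 annotated start. No window was found for FOXM1. The following stretches run 5′ to 3′ on the strand of the gene, with the matched letters in capitals and 11 bases on either side. They are shown because LIN54 is the subunit that reads the CHR, and because the 2 E2F matches are the only ones in these windows. In none of the 3 does the stretch overlap an annotated exon.
LIN54, CHR: gcccttgtgcgTTTGAAggttggcgggg
LIN52, E2F: tggaacctcgtTTTCCCGCcgacggttggc
TFDP1, E2F: gggcgccgaagGCGCGAAAaggcgcgcagg

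The LIN54 stretch lies at chr4:83010907-83010934 on the minus strand, within the gene but outside its annotated exons. Its CHR letters begin 100 and 89 bases before the 2 annotated RefSeq starts of LIN54. The LIN52 stretch lies at chr14:74084920-74084949 on the plus strand, outside LIN52 and outside annotated exons, with the match beginning 25 bases before the start. The TFDP1 stretch lies at chr13:113584622-113584651 on the plus strand, likewise outside TFDP1 and annotated exons. Its match, on the opposite strand, begins 120 bases before the start. Whether either stretch lies in an intron of another gene was not checked.

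The CHR was searched as TTTGAA or TTCGAA on both strands. It was found for 5 of the 9 genes (LIN9, LIN37, LIN54, RBL2 and TFDP2) and in 7 of the 17 windows, beside 19.5% of all 27305 genes and 16.4% of all 35116 windows in the RefSeq set. In LIN9 both spellings occur in 1 window, with TTCGAA, which reads the same on both strands, beginning 60 bases and TTTGAA 3 bases before that start. The CHR match of RBL2 begins downstream, at base 25 counted from the start. The CHR stretches of LIN9, LIN37 and RBL2 overlap exons of their own gene, and those of TFDP2 lie within the gene. The E2F site was searched as TTTCCCGC, TTTGGCGC, TTTCGCGC or TTTGCCGC on both strands, and it was found for LIN52 and TFDP1 only, in 2 of the 17 windows, beside 3.99% of all genes and 3.31% of all windows. CCAAT, the box bound by NF-Y in many cell cycle promoters, was found on either strand for 5 of the 9 genes (LIN37, LIN52, RBBP4, RBL2 and TFDP2), in 6 windows, beside 39.7% of all genes and 34.6% of all windows. The single window of MYBL2 held none of these letters. Windows of 1 gene can overlap, as both windows of LIN54 do, which hold the same CHR match, so the windows are not independent. Genes with more windows have more chances of a match, and the 9 genes have more windows per gene than the RefSeq set. The shares by gene are therefore not directly comparable, and no enrichment was tested. A match describes letters in a window and does not show that a protein binds there. Only these exact words were searched, so a window without a match, as for MYBL2, may still hold a site with other letters.

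Among the MuvB core genes, RBBP4 (ENSG00000162521) had a base mean of 4756. RBBP4 encodes a histone-binding protein that also serves in several chromatin complexes outside MuvB. LIN54 (ENSG00000189308), the DNA-binding subunit, had a base mean of 698.2. LIN52 (ENSG00000205659), whose phosphorylation by DYRK1A promotes DREAM assembly, stood at 441.0. LIN9 (ENSG00000183814), a scaffold subunit to which B-MYB binds together with LIN52, stood at 171.0, and LIN37 (ENSG00000267796), a subunit needed for repression by DREAM, at 47.6. These values are not corrected for length, and for orientation only, the median base mean of the 15758 listed protein-coding genes was 650.6.

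Among the DREAM partners, TFDP1 (ENSG00000198176), which encodes the DP1 partner of E2F proteins, had a base mean of 3498. RBL2 (ENSG00000103479), which encodes the RB-like protein p130, had 2142, and TFDP2 (ENSG00000114126), which encodes DP2, had 1499. Of the activators, FOXM1 (ENSG00000111206), a forkhead transcription factor of the G2 and M phases, had a base mean of 3768 and MYBL2 (ENSG00000101057) one of 2934. As pooled values that separate neither the lines nor the treatments, they do not show how much of either activator was present with or without Nutlin-3a.

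**Figure D1:**
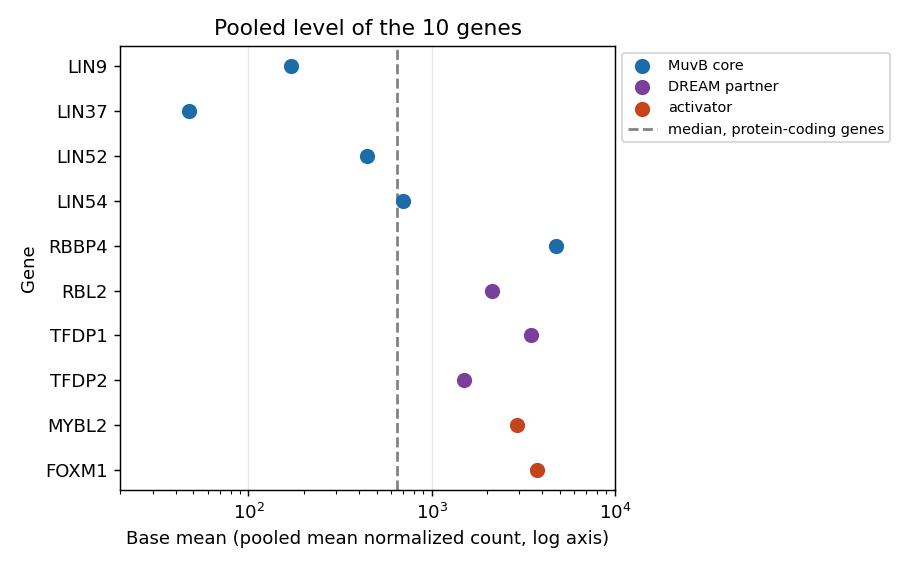
Base mean of each gene on a log axis, coloured by role, with 1 point per gene and no error because the value is pooled. The points run from 47.6 for LIN37 to 4756 for RBBP4, not corrected for gene length, and the dashed line is the median of protein-coding genes at 650.6.

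Longer genes collect more reads, so levels of different genes are compared per kilobase. Over all annotated exons of each gene in GENCODE 44, MYBL2 was the highest, with a base mean per kilobase of 1057, followed by TFDP1 with 934.3 and FOXM1 with 766.0. RBBP4 came next with 502.3, and RBL2 had 264.1 per kilobase. Further genes lay near the median of protein-coding genes, which was 120.3 per kilobase: TFDP2 with 126.0, LIN52 with 116.4 and LIN54 with 103.3. LIN9 had 38.5 and LIN37 16.9 per kilobase, at percentiles 30.0 and 21.1 of the protein-coding genes.

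The choice of length changed several of these values. With the canonical transcript as the length, TFDP1 was the highest at 1325 per kilobase, and MYBL2 with 1100 and FOXM1 with 1061 were within a factor of 1.04 of each other. LIN37 had 50.9 per kilobase, because its canonical transcript has 935 bases and its exons together cover 2820. Both lengths placed LIN37 last and LIN9 next to last. The ratio of TFDP1 to TFDP2 was 7.42 per kilobase of exon and 8.74 per kilobase of canonical transcript. RBBP4 exceeded LIN54, the DNA-binding subunit, by 4.86-fold and 5.29-fold, respectively. For LIN54 and LIN52, the ratio was 0.887 and 0.743. Without an error for any of these values, it cannot be said which neighbours in the order differ.

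**Figure D2:**
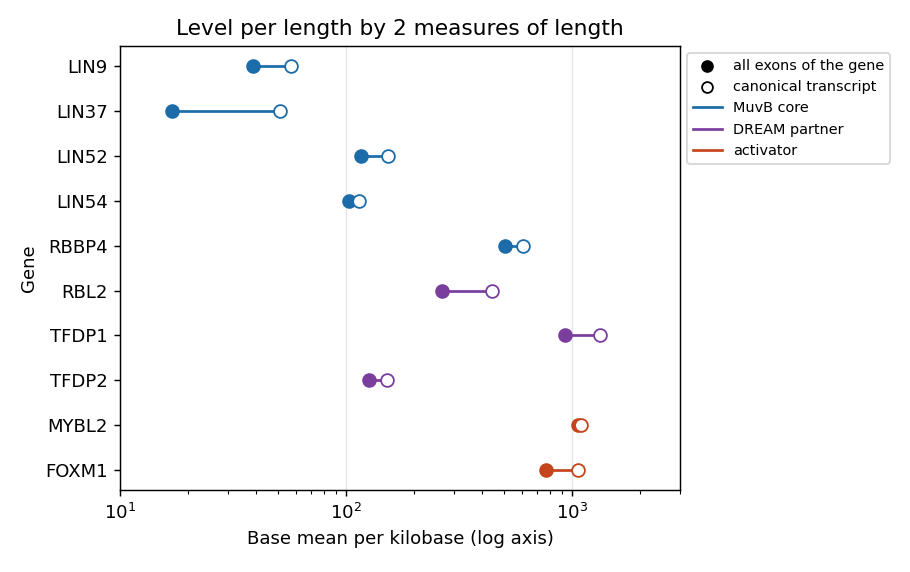
Base mean per kilobase on a log axis, with the length of all exons (filled points) or of the canonical transcript (open points), coloured by role. LIN37 is the lowest by both lengths, at 16.9 and 50.9, whereas the highest is MYBL2 by the first and TFDP1 by the second.

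The other DREAM and MuvB genes on the list were RBL1, E2F4, E2F5, MYBL1 and DYRK1A. RBL2 was above its relative RBL1, which encodes p107, by 3.61-fold per kilobase of exon (5.75-fold with the canonical transcript). E2F4, the main E2F subunit of DREAM, was above E2F5 by 15.3-fold per kilobase of exon (8.55-fold with the canonical transcript). MYBL2 exceeded MYBL1, which encodes A-MYB, by 7.89-fold per kilobase of exon (5.85-fold with the canonical transcript). DYRK1A, the kinase that acts on LIN52, had 86.3 per kilobase of exon (135.6 with the canonical transcript). The 8 cell cycle genes regulated through MuvB and DREAM (CCNB1, CCNB2, CDK1, PLK1, AURKA, CCNA2, BUB1 and TOP2A) ranged from 216.7 per kilobase of exon for CDK1 to 966.4 for CCNB1, with a median of 470.1. With the canonical transcript, they ranged from 402.5 for BUB1 to 1159 for CCNB1, with a median of 691.6. All 8 were above the median of protein-coding genes by both lengths. Of the 10 MuvB, DREAM and activator genes, 6 were above it per kilobase of exon and 5 with the canonical transcript, where the median was 191.0 and TFDP2, with 151.7, lay below it. Of the 5 other DREAM and MuvB genes, 2 were above it by the first length and 1 by the second.

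The genes lie on 9 chromosomes of GRCh38, in GENCODE 44. LIN9 lies on chromosome 1 from 226231149 to 226309869 on the minus strand and RBBP4 on the same chromosome from 32651142 to 32686211 on the plus strand. LIN37 lies on chromosome 19 from 35748361 to 35754519 (plus), LIN52 on chromosome 14 from 74084956 to 74201493 (plus) and LIN54 on chromosome 4 from 82909973 to 83012926 (minus). RBL2 lies on chromosome 16 from 53433977 to 53491648 (plus), TFDP1 on chromosome 13 from 113584721 to 113641473 (plus) and TFDP2 on chromosome 3 from 141944428 to 142149544 (minus). MYBL2 lies on chromosome 20 from 43667019 to 43716495 (plus) and FOXM1 on chromosome 12 from 2857680 to 2877174 (minus).

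Since the study was about promoters that face each other, annotated genes starting on the opposite strand within 2500 bp of each start were listed. FOXM1 was the only one of the 10 with a convergent start, that of RHNO1, 916 bp downstream of its own, so that both genes overlap at their 5′ ends. The base mean was 667.5 for RHNO1, which encodes a DNA damage response protein, and 3768 for FOXM1. Such a start was annotated for 17.2% of 15740 protein-coding genes. FOXM1 also has a divergent neighbour, TULP3, starting 49 bp upstream with a base mean of 1115. Divergent starts were also found for RBBP4, with ZBTB8OS 239 bp upstream (base mean 534.0), and for LIN52, with ALDH6A1 464 bp upstream (base mean 778.6). Together 3 of the 10 genes had a divergent start, beside 22.2% of protein-coding genes. Starts here are the outermost annotated ends of each gene, which can differ from the starts used in these cells.

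**Figure D3:**
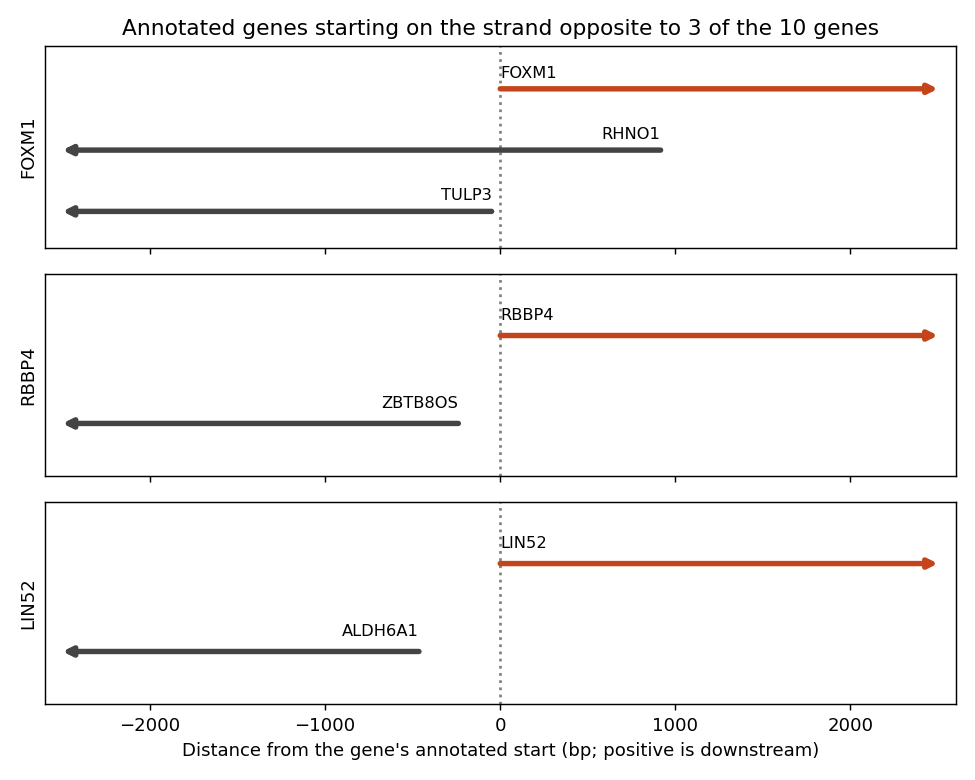
Annotated genes around the starts of FOXM1, RBBP4 and LIN52, drawn by distance in bp from the annotated start, with arrows in the direction of transcription and cut at 2500 bp. RHNO1 starts 916 bp downstream of FOXM1 on the other strand, whereas TULP3, ZBTB8OS and ALDH6A1 start 49, 239 and 464 bp upstream of their neighbours.

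Some levels depend on how reads were assigned. RBBP4 has 4 processed pseudogenes in the tables, of which RBBP4P1 had a base mean of 717.2 and RBBP4P2 one of 342.2, equal to 15.1% and 7.20% of the value of RBBP4. TFDP1 has 3, of which TFDP1P2 was the highest with a base mean of 266.6, or 7.62% of that of TFDP1. Processed pseudogenes are copies of a gene's transcript, and per the paper's methods only uniquely mapped reads were kept. How many reads of RBBP4 and TFDP1 were lost or assigned to these copies was not tested, and both values are uncertain for that reason. The exons of LIN37 are shared on the same strand with a further protein-coding gene of GENCODE 44, ENSG00000188223, which the tables do not list. They also overlap exons of a long noncoding RNA on the opposite strand, ENSG00000267439, which is not listed either. Whether these overlaps bear on the low value of LIN37 was not tested. No gene is annotated as overlapping LIN9, TFDP1 or MYBL2. FOXM1 overlaps exons of ITFG2 (base mean 482.3) and RBBP4 those of SYNC (base mean 1085), both on the opposite strand, and RBL2 those of AKTIP (base mean 283.2). The paper's methods describe counting by strand, which separates reads of such pairs, but they do not name HCT116. Whether the counts used here were made by strand was not tested.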

How the data were processed

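RNA-seq libraries of HCT116 and RPE-1 cells treated with Nutlin-3a or DMSO were sequenced by the authors. Per the labels, reads were processed with Trimmomatic 0.39, cutadapt 3.3, SAMtools 1.12, featureCounts 2.0.1 and DESeq2 1.32.0 on hg38. The paper's methods give other versions of cutadapt, featureCounts and DESeq2 and do not name HCT116. The labels describe depletion of ribosomal RNA, the paper's methods poly(A) selection and counting on exons by strand with Ensembl annotation. The deposited signal used here is the base mean, the authors' mean over libraries of counts divided by size factors. Each deposited table also holds the authors' log2 fold change of Nutlin-3a over DMSO, its standard error, test statistic, p-value and adjusted p-value, which were not used. No values per library were used, so the depth is unknown, and the planned tests of treatment and cell line were not run.

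Members and lists were chosen with earlier results of these data known. Named were the 10 genes, 5 other DREAM and MuvB genes, 8 cell cycle genes, and MDM2 and CDKN1A. Neighbours and pseudogenes were added after their values were seen. Exon lengths and gene positions came from GENCODE 44 (25836 genes matched), on the same build, and promoter windows from RefSeq. The paper's methods name an earlier annotation release, so the exons counted can differ from those whose lengths were used. A gene's length was the union of its exons or, as an alternative, that of its canonical transcript. The search for motifs was tested on simulated sequences with TTTGAA on either strand only, and the percentiles on a fixed series of numbers. Python 3.11.15, numpy 2.4.6, pandas 2.3.3 and matplotlib 3.10.9 were used.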

Additional observations from a re-analysis of the deposited data

How the results depend on the processing

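The order of the 10 genes by pooled level was recomputed per length, counting from 1 for the highest. By base mean, the order was RBBP4, FOXM1, TFDP1, MYBL2, RBL2, TFDP2, LIN54, LIN52, LIN9 and LIN37. Per kilobase of exon, 6 genes changed place: MYBL2 moved from 4 to 1, TFDP1 from 3 to 2, FOXM1 from 2 to 3, RBBP4 from 1 to 4, LIN52 from 8 to 7 and LIN54 from 7 to 8. Per kilobase of canonical transcript, an alternative chosen after seeing the data, 7 changed place: TFDP1 moved to 1, MYBL2 to 2, FOXM1 to 3, RBBP4 to 4, LIN52 to 6, TFDP2 to 7 and LIN54 to 8. These shifts follow from dividing by lengths that differ between genes. RBL2, LIN9 and LIN37 kept places 5, 9 and 10 under both. Both divide the same base mean, so they do not address the exons that LIN37 shares with another gene on its strand. Whether that overlap lowers its place was not tested. No paired analysis was possible because no values per library were used. Leaving out single libraries and the alternatives in normalization and filtering needed such values too and were not run. With an unknown number of reads, no counting error can be given for the low values of LIN37 and LIN9.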
